A study of Caenorhabditis elegans with 36 samples.

Results

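Small RNA libraries from wild-type *C. elegans* (N2, referred to as WT) and from *ebax-1(tm2321)* mutants (strain HW3527) were compared in the 6 h stretch that runs through late larval development, WT 30 to 35 h and mutant 33 to 38 h after plating. Mutants develop more slowly, and each mutant library was paired with the WT library collected 3 h earlier. These 6 pairs are named by their aligned hour, the WT hour (30 to 35 h). They make up 12 of the 36 libraries of the time course, 6 of 18 per strain, and the count table holds 437 mature miRNA strands in each.

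Animals of both strains had been synchronized as first-stage larvae, plated with food at 25 °C without any treatment and harvested every hour from 25 to 42 h. The strains differ by the *ebax-1(tm2321)* allele, carried throughout the body, so that the comparison concerns whole animals. There was 1 library per strain and hour, and the labels name no separate cultures. Errors and p-values therefore measure how the strain difference scattered over the 6 aligned hours, while effects of the culture or of the preparation of the libraries cannot be told apart from those of the strain. Only miRNAs were counted, so the state of ebax-1 itself could not be checked. Since RNA came from whole animals, fewer cells of a type and less miRNA per cell cannot be told apart.

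EBAX-1 is the worm counterpart of ZSWIM8, the substrate receptor of a Cullin-RING ubiquitin ligase. In target-directed miRNA degradation (TDMD), as described in mammals and flies, a transcript with extensive pairing to a miRNA leads this ligase to the Argonaute protein that holds the miRNA. Argonaute is then destroyed and the miRNA is lost with it. For worms the study knew of no such transcript, and it counts decay through EBAX-1 as TDMD only by analogy. A miRNA hairpin yields a 5p and a 3p strand. The strand loaded into Argonaute (guide) is usually stable, whereas the other strand (passenger) is usually degraded soon after processing, so the level of a passenger strand depends largely on how much hairpin is made. Here the guide was the strand with the higher mean in the 6 WT libraries, and the passenger its partner.

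Library totals were 3168826 to 4712623 counts in WT and 4382876 to 8060155 in the mutant. The deepest library, mutant 34 h, stood apart: its miRNAs deviated from the mean of the neighbouring hours by 0.35 log2 on average, against 0.18 to 0.24 in the 7 other libraries that have a neighbour on both sides. Each test below was therefore repeated without mutant 34 h and its partner, WT 31 h. Of the 437 strands, 240 passed the filter on low counts. The 197 others had a mean of at most 11.7 counts over the 12 libraries and 56 of them had no count at all. Levels are CPM (read counts scaled to a common library size) computed with TMM factors, which were 1.02 to 1.18 in WT and 0.855 to 0.945 in the mutant. The list of tissue markers also held the miR-35 family, for embryo or germline. All 7 of its tested members were higher, by 1.66 to 2.90 log2, and the study named it as responsive to EBAX-1. The 5 other listed markers, of muscle, neurons, intestine and glia, did not pass the test in either direction, whereas 18.8% of all strands did. The muscle miRNA miR-1-3p differed by 0.05 ± 0.07 log2 (mutant minus WT ± SE), the neuronal miR-124-3p by 0.40 ± 0.16 and lsy-6-3p by -0.49 ± 0.24, the intestinal miR-60-3p by -0.40 ± 0.19 and the glial miR-228-5p by 0.28 ± 0.10. Of these 5, miR-124-3p and miR-228-5p were under an unadjusted p of 0.05, and neither DESeq2 nor limma called any. With library totals as scaling, miR-1-3p and miR-228-5p were at -0.24 and -0.02. miR-234-3p, another miRNA of neurons that was not on the list, was called lower (-0.94 ± 0.21, edgeR adjusted p = 0.00749) from at most 37 reads per library, a call that was lost without the mutant 34 h pair.

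The first comparison asked which miRNAs differed in abundance between the strains in this window. In the mutant 31 strands were higher and 14 were lower (12.9% and 5.83% of the 240 tested, edgeR quasi-likelihood test with the aligned hour as a factor, Benjamini-Hochberg adjusted p under 0.01). The differences were unequal in size, with a median of 1.23 log2 among the higher strands and of -0.80 among the lower ones, and 17 of the former but 3 of the latter exceeded 1 log2. Of the higher strands, 29 had 1 sign in all 6 aligned hours, as did all 14 lower ones. Groups that did not overlap, with all 6 mutant libraries on 1 side of all 6 WT libraries, were found for 24 strands higher in the mutant (10% of those tested) and 16 lower (6.67%), and 35 of these were among the calls. Strands that were higher had a median WT level of 385 CPM, against 55.4 CPM for those that were lower and 116 CPM over all strands tested. Among the 49 strands above 1000 CPM in WT, 11 were higher and 1 was lower.

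Without WT 31 h and mutant 34 h, 32 strands were higher and 12 lower, and 39 of the 45 calls were kept. The 6 lost calls were miR-790-5p, miR-234-3p, miR-2217b-3p, miR-8196a-3p, miR-1830-3p and miR-8202-5p, and the 5 new ones were let-7-5p and miR-246-3p (higher) and miR-83-3p, miR-236-3p and miR-243-5p (lower). Leaving out WT 32 h and mutant 35 h gave 27 higher and 7 lower strands, leaving out WT 30 h and mutant 33 h or WT 34 h and mutant 37 h gave 9 lower ones. Scaling mattered more for the lower strands. With library totals in place of TMM factors the median difference of all 240 strands moved from -0.02 to -0.31 log2, and the calls split into 22 higher and 71 lower. Differences are therefore given relative to the bulk of the miRNAs.

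**Figure D1:**
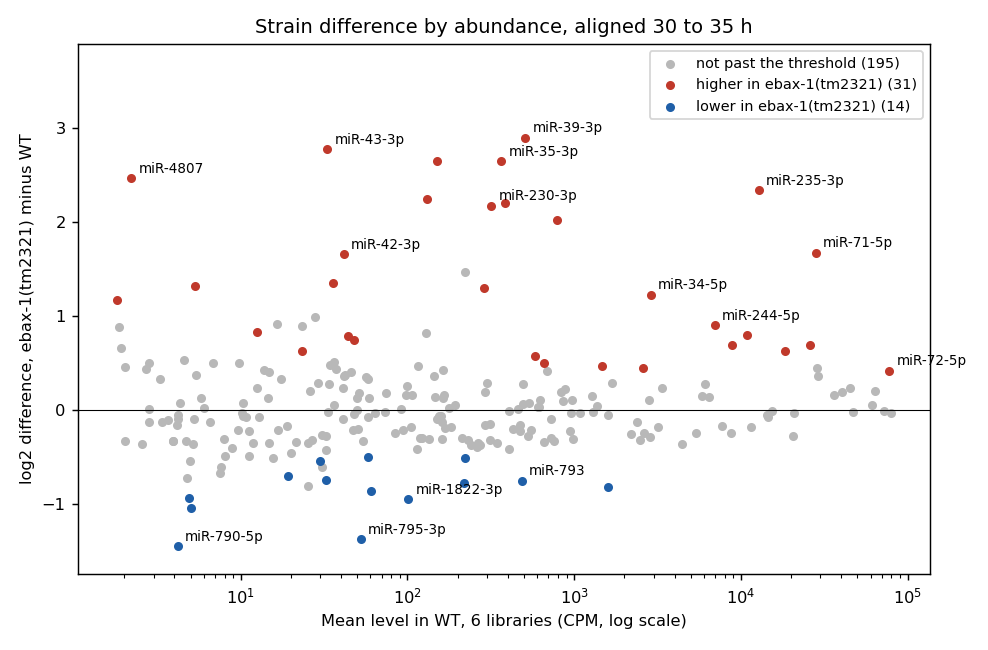
Strain difference of each of the 240 miRNA strands tested (y axis, log2, *ebax-1(tm2321)* minus WT, 6 pairs of libraries) against its mean level in the 6 WT libraries (x axis, CPM, log scale). The 31 strands that were higher lie up to 2.90 log2 above 0 and reach from the rarest to the most abundant miRNAs, while the 14 lower ones (blue) extend to -1.45.

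The miR-35 family contributed 6 of the 12 largest increases and miR-42-3p, its member from another locus, a further one. These miRNAs share a seed, are made in large amounts in embryos, where they are needed for viability, and also act in sex determination. All 7 members tested were higher (median 2.25 log2, against -0.02 over all 240 strands), with or without the mutant 34 h pair, and in none did the strains overlap. The 8th, miR-41-3p, had 0 to 9 counts per library and did not pass the filter. Because the study named the family as responsive to EBAX-1, its direction is no independent observation. Over the listed strands of the miRNAs that it named as responsive, 10 of the 12 tested were higher and the 2 strands of miR-788 were not called. Of these 2, the study took miR-788-5p as the guide and reported no stabilization of the passenger strand, so miR-788-3p is not a strand it named as responsive. The study described these miRNAs in part from this same time course, so the count of 10 is no independent observation either. Over all 240 strands 12.9% were higher. Summed over its tested members, the miR-35 family reached 1077 to 3329 CPM in WT (median 2529) and 11244 to 13060 CPM in the mutant (median 11853).

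miR-39-3p showed the largest difference of any strand. It ranged from 281 to 715 CPM in WT (median 485) and from 3254 to 4361 CPM in the mutant (median 3528), a difference of 2.90 ± 0.17 log2 or 7.46-fold (n = 6 pairs, edgeR adjusted p = 1.23e-06). The lowest mutant library thus lay far above the highest WT library. miR-35-3p had 143 to 489 CPM in WT and 1902 to 2230 CPM in the mutant (2.65 ± 0.23). miR-38-3p, whose other strand was hardly detected (0 to 3 counts), had 43.4 to 213 CPM in WT and 710 to 916 CPM in the mutant (2.65 ± 0.27). For miR-40-3p the difference was 2.25 ± 0.19, for miR-37-3p 2.20 ± 0.23 and for miR-36-3p 2.02 ± 0.19. miR-36-3p was the most abundant member in WT, with a median of 796 CPM. Across the 6 h the highest mutant library of each of these 6 members stood 1.17 to 1.34 times above the lowest, and in WT it stood 2.54 to 4.91 times above it. These hairpins lie together on chromosome II, opposite to an intron of Y62F5A.9.

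miR-42-3p and miR-43-3p come from a second group of hairpins on chromosome II, shared with miR-44. miR-42-3p had 53.4, 43.1, 76.7, 37.5, 24.3 and 13.8 CPM in WT at 30 to 35 h and 125, 142, 125, 115, 100.1 and 99.5 CPM in the mutant (1.66 ± 0.23). The strains did not overlap, and the lowest WT value was that of the last hour. miR-43-3p, which does not carry the seed of the miR-35 family, had the steadiest large difference. WT held 25.2 to 41.1 CPM and the mutant 193 to 248 CPM, and the 6 hourly differences stayed between 2.51 and 2.93 log2 (2.78 ± 0.11, 6.86-fold, edgeR adjusted p = 6.50e-08). The third 3p strand of the group, miR-44-3p, was 0.69 ± 0.11 higher, but the strains overlapped. Its call was lost with limma and without the pairing by hour. Mutant 34 h had 520841 reads of it and the other mutant libraries 149826 to 190315. Without that pair the difference was 0.59, with the call kept. miR-45-3p, from a separate locus on the same chromosome, had 0.340 to 0.346 times the count of miR-44-3p in each of the 12 libraries. The SD of their log2 ratio was 0.006, against a median of 0.46 over all 4656 pairs of the 97 strands with a mean above 1000 counts. Reads that fit several positions had been kept, and the values of miR-44-3p and miR-45-3p (0.70 ± 0.11) cannot be taken as separate measurements. The call of miR-45-3p was lost in 5 of 17 alternatives.

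**Figure D2:**
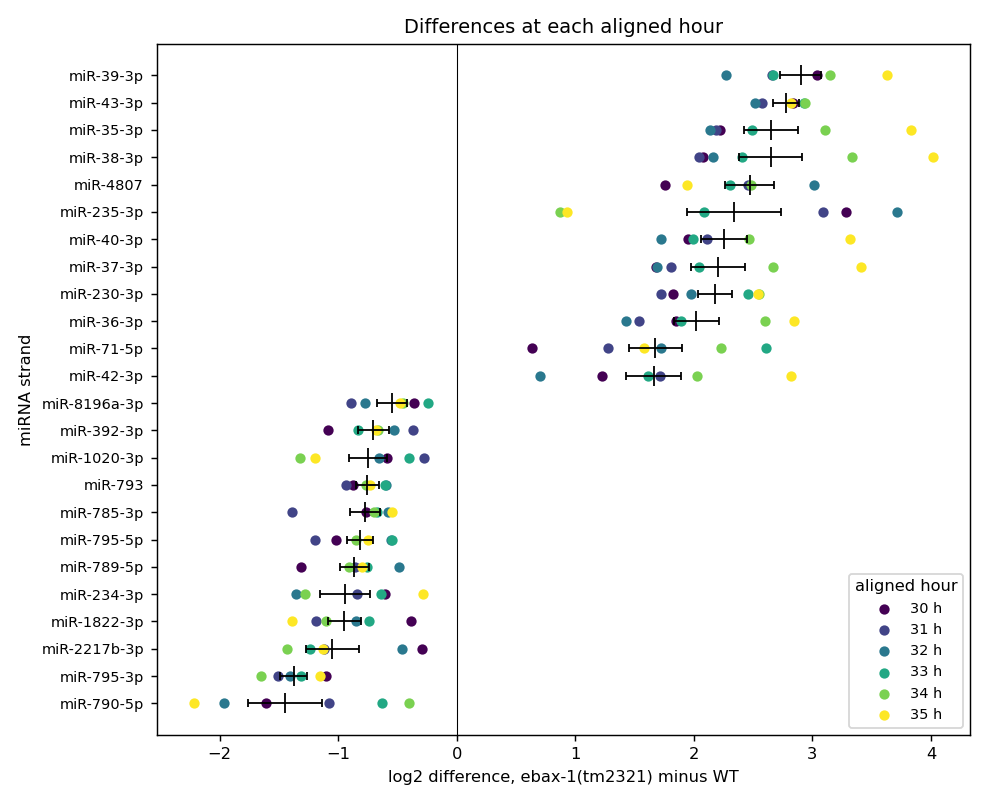
Log2 difference, *ebax-1(tm2321)* minus WT, at each aligned hour (coloured points) for the 12 largest increases and 12 largest decreases with 1 sign in all 6 hours, with the fitted difference and its SE (black bars). miR-43-3p stayed within 2.51 to 2.93 log2, whereas miR-235-3p went from 3.29 at 30 h to 0.93 at 35 h.

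Outside these hairpins the largest differences belonged to miRNAs of very different abundance. miR-4807, from an intergenic hairpin on chromosome X, was rare. It was represented by 4 to 19 reads per WT library and 47 to 120 per mutant library, or 0.908 to 3.61 CPM and 9.18 to 15.9 CPM, without overlap (2.47 ± 0.21). miR-230-3p, also from chromosome X, was 2.18 ± 0.14 higher, with 199 to 461 CPM in WT and 1165 to 1633 CPM in the mutant. miR-253-3p (1.30 ± 0.13) had 253 to 313 CPM in WT and 480 to 849 CPM in the mutant. The lowest of these mutant values came from the 34 h library. The same library was lowest for miR-34-5p, a miRNA known for its part in stress resistance and ageing, which had 2451 to 3149 CPM in WT and 4988 to 7953 CPM in the mutant (1.23 ± 0.12, edgeR adjusted p = 3.14e-05). Neither group overlapped in spite of it.

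miR-71-5p and miR-235-3p were the most abundant miRNAs among the large increases. miR-71, which extends lifespan and acts in neurons and the response to starvation, is encoded in an intron of ppfr-1 on chromosome I. Its guide miR-71-5p went in WT from 52902 CPM at 30 h through 33939 and 23294 to 12260 CPM at 33 h, and then stood at 17115 and 29045 CPM. In the mutant it read 82077, 82161, 76849, 74691, 80423 and 86552 CPM. Its lowest value fell at the same aligned hour as that of WT, in a range that was much narrower. The difference was 1.68 ± 0.22 log2 (3.19-fold), from 0.63 at 30 h to 2.61 at 33 h, and its share of all counts was 3.12% on average in WT and 7.28% in the mutant. These are descriptions of the time course, as the change over time within a strain was not tested.

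miR-235-3p, the worm relative of the miR-92 family, which holds progenitor cells quiescent when larvae are starved, ran in the other direction. In WT it had 3147, 2840 and 2354 CPM at 30 to 32 h and then 10760, 25496 and 32242 CPM. The mutant had 30696, 24165, 30823, 45713, 46665 and 61340 CPM, so that the strains overlapped when the hours were disregarded. Paired by hour, the mutant was higher by 3.29, 3.09, 3.71, 2.09, 0.87 and 0.93 log2 (2.34 ± 0.40, edgeR adjusted p = 0.00122). The call was lost without WT 30 h and mutant 33 h (2.18, adjusted p = 0.01001) and in a fit that ignored the pairing by hour (1.64, adjusted p = 0.0749). Pairing with a shift of 2 or 4 h in place of 3 h gave 2.22 and 2.36, with the call kept.

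**Figure D3:**
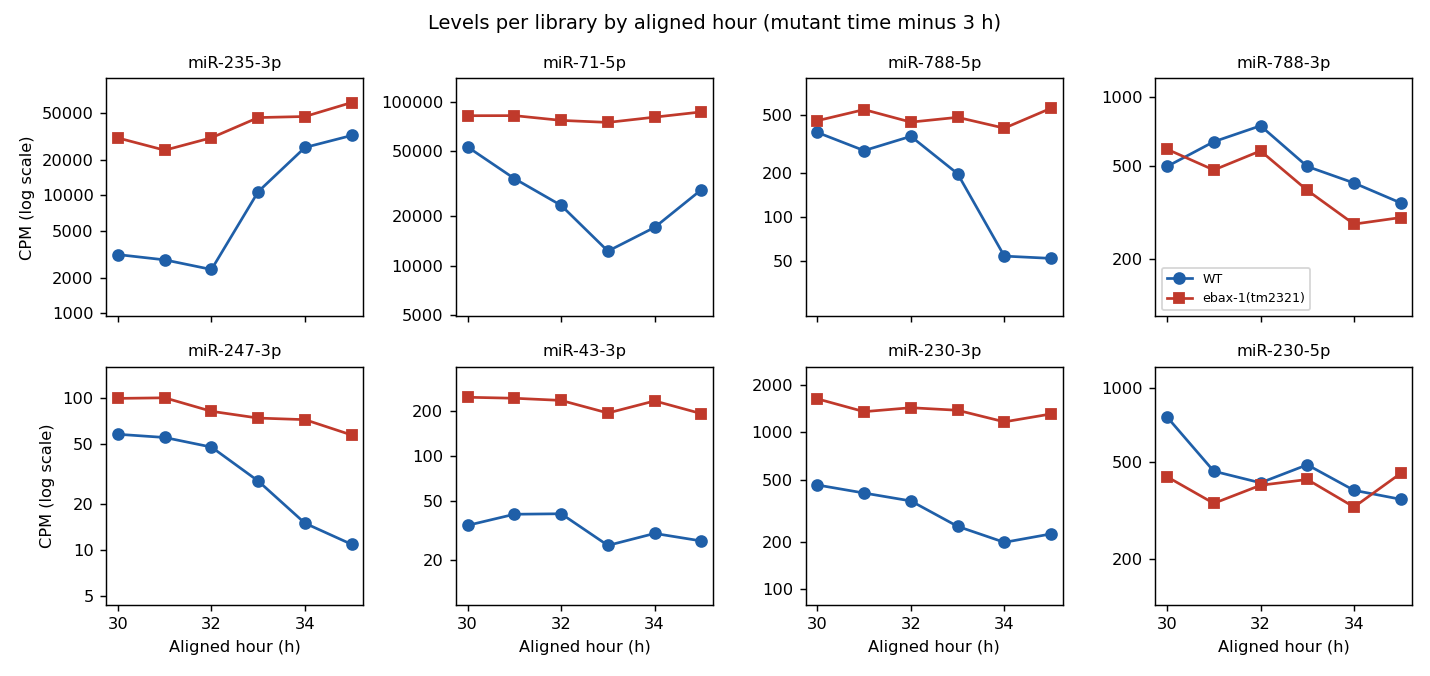
Levels of 6 guide or responsive strands and of the partner strands of miR-788-5p and miR-230-3p in each library (CPM, log scale, with its own range in each panel) against the aligned hour, in WT (blue circles) and *ebax-1(tm2321)* (red squares, mutant time minus 3 h). miR-71-5p dipped to 12260 CPM in WT at 33 h while the lowest mutant library had 74691 CPM, and miR-788-5p reached 51.9 CPM in WT while the lowest mutant library had 406 CPM.

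The remaining higher strands differed by at most 1.36 log2. miR-61-3p, which takes part in the LIN-12/Notch switch of vulval precursor cells, and miR-247-3p share a seed, and both were higher. miR-61-3p had 9198 to 13354 CPM in WT and 16860 to 26484 CPM in the mutant (0.80 ± 0.10). miR-247-3p ended the window lower than it began in both strains, going from 57.9 to 10.9 CPM in WT and from 99.8 to 57.3 CPM in the mutant (1.36 ± 0.23), so that the lowest mutant level and the highest WT level were about equal. Its call was lost in the fit without the pairing by hour. The hairpin beside each of these also gave a higher strand, miR-250-3p next to miR-61 on chromosome V (0.45 ± 0.10) and miR-797-5p next to miR-247 on chromosome X (1.32 ± 0.19). The call of miR-250-3p was lost in 9 of 17 alternatives, among them leaving out any pair other than that of mutant 34 h, while that of miR-797-5p was kept in all it was tested in. In the group that shares the seed of miR-2, 3 of 4 strands were higher (miR-43-3p, miR-797-5p and miR-250-3p), while miR-2-3p itself gave -0.33 ± 0.20 (edgeR adjusted p = 0.201) although its hairpin neighbours miR-71. With library totals 2 of the 4 were higher. The share over all 240 strands was 12.9% higher with TMM factors.

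Of the abundant strands called higher, miR-72-5p, miR-244-5p and miR-237-5p differed by less than miR-71-5p and with a smaller SE. miR-72-5p was 0.42 ± 0.07 higher, with 69014 to 85093 CPM in WT and 100625 to 105618 CPM in the mutant. It was the most abundant strand of the mutant. Its call did not hold with library totals, with limma, at a minimum count of 50 or without the pair at aligned 33 or 34 h. miR-244-5p was 0.90 ± 0.09 higher (6029 to 8585 CPM in WT, 12123 to 13878 CPM in the mutant). miR-237-5p, of the lin-4 family that times larval cell fates, was 0.63 ± 0.08 higher (15722 to 21018 CPM against 23893 to 33733 CPM), while lin-4-5p did not pass the test (0.03 ± 0.14). In none of the called 3 did the strains overlap. The call of miR-237-5p was lost with limma. Further higher strands, at 0.47 to 1.17 log2, were miR-8202-5p, miR-239a-3p, miR-78, miR-355-5p, miR-5592-5p, miR-233-3p and miR-77-5p. Of these, miR-239a-3p lost its call only without the pairing by hour, whereas miR-77-5p lost it in 10 alternatives, miR-8202-5p in 9, miR-78 in 8, miR-5592-5p in 7 and miR-355-5p and miR-233-3p in 5 each. The losses of these 6 included library totals, limma and the leaving out of at least 2 of the 6 pairs.

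Of all 240 strands 18.8% were called in either direction, and 0 calls in the short lists below cannot be told apart from that share. The let-7 family, which brings on adult cell fates at the end of larval development, had no member past the threshold. Its 4 members lay between -0.01 and 0.24 log2, 1 of the 4 was under an unadjusted p of 0.05, and neither DESeq2 nor limma called any. let-7-5p itself had 40190 to 52473 CPM in WT and 28675 to 69663 CPM in the mutant, the lowest value being that of mutant 34 h. With that pair it gave 0.24 ± 0.14 (edgeR adjusted p = 0.202), and without it 0.40 with an adjusted p of 0.00798. With library totals and all pairs it gave -0.05. The miR-51 family likewise had 0 of 6 strands called (-0.30 to -0.03, 0 at an unadjusted p under 0.05, 0 with DESeq2 or limma), as did the 6 tested strands of the miR-58 family, relatives of the fly miRNA bantam (-0.18 to 0.21, with 1 at an unadjusted p under 0.05, 0 with DESeq2 and 1 lower with limma). The 4 strands of the miR-64 cluster were not called either (-0.24 to 0.44, 2 higher and 1 lower at an unadjusted p under 0.05, 1 higher with DESeq2 and 1 lower with limma). The medians of the let-7 family and the miR-64 cluster changed sign with library totals, from 0.10 to -0.19 and from 0.26 to -0.03.

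The smaller lists followed, and the same limit applies to them. Of the miR-72 family 1 of 3 strands was called (miR-72-5p). The pairs miR-75 with miR-79 (0.05 and -0.22) and miR-49 with miR-83 (-0.35 and -0.81) had 0 of 2 called each. miR-83-3p was called by DESeq2 and limma, and by edgeR without the mutant 34 h pair (-1.02, adjusted p = 0.00117). The 3 listed strands of miR-238 and miR-239, known for opposite effects on lifespan, were not called (0.10 to 0.89, 1 of them called by DESeq2). lin-4-3p, which the study named with let-7-5p as unresponsive, was not called at 0.36 log2 (of these 2 strands 1 was under an unadjusted p of 0.05, and 0 were called by DESeq2 or limma). Of the 3 tested strands on the list of mirtrons (hairpins made by splicing), miR-1018 was higher (0.83 ± 0.13), miR-1020-3p lower (-0.75 ± 0.16) and miR-62 not called (-0.35). The annotation places miR-1018 outside introns, in a group on chromosome X that also holds miR-4807 and has tested strands from 5 hairpins. The place of miR-1018 on that list is therefore uncertain.

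By chromosome, 13 of the 43 tested strands of chromosome II were higher and 3 lower. Over all 240 strands tested, 12.9% were higher and 5.83% lower. Of the 13, the miR-35 group gave 6 and the miR-42 group 3. Chromosome X had 9 higher and 5 lower of 78, chromosome I 3 and 2 of 21 and chromosome IV 2 and 1 of 34. Chromosome V had 3 and 0 of 24 and chromosome III 0 and 1 of 33. Neighbouring hairpins are not independent.

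The lower strands were fewer and mostly rare. Both strands of miR-795 were lower, and this was the only hairpin with both strands called. miR-795-3p had 44.9 to 60.7 CPM in WT and 17.5 to 24.3 CPM in the mutant (-1.38 ± 0.12, edgeR adjusted p = 1.44e-05), and its more abundant partner miR-795-5p had 1407 to 2092 CPM and 749.7 to 1029 CPM (-0.82 ± 0.11). In neither did the strains overlap. miR-795-5p carries a let-7-like seed, as do miR-793 (-0.75 ± 0.09) and miR-794-5p (-0.42 ± 0.12, edgeR adjusted p = 0.0234), which stands next to miR-795 on chromosome I. miR-793, from chromosome X, had 439 to 584 CPM in WT and 261 to 318 CPM in the mutant. All 3 let-7-like strands were lower in 6 of 6 hours without overlap, and 2 of them passed the threshold. Over all 240 strands, 14.2% were lower in 6 of 6 hours, 6.67% lower without overlap and 5.83% called lower.

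miR-1822-3p, whose hairpin is intronic in ZK84.2 on chromosome II, had 79.6 to 118 CPM in WT and 43.2 to 60.9 CPM in the mutant (-0.95 ± 0.14), and miR-789-5p had 45.0 to 70.8 CPM and 28.2 to 37.8 CPM (-0.86 ± 0.12). The strains were apart for both. For miR-785-3p they were not (150 to 309 CPM and 58.8 to 211 CPM), yet it was lower in each of the 6 hours (-0.78 ± 0.13). Its lowest value, 58.8 CPM, came from mutant 34 h, and its call was kept without that pair but lost without the pairing by hour. Several of the largest decreases rested on few reads. miR-790-5p (-1.45 ± 0.31) had 11 to 27 reads per WT library and 2 to 15 per mutant library. miR-234-3p (-0.94 ± 0.21) and miR-2217b-3p (-1.05 ± 0.22) had at most 37 and 25 reads. These 3, together with miR-8196a-3p (-0.55 ± 0.12), lost their calls without the mutant 34 h pair, with adjusted p of 0.0162 to 0.0213. Further decreases, of miR-254-3p (-0.51 ± 0.10) and miR-1830-3p (-0.50 ± 0.12), were smaller. The remaining named decreases, miR-392-3p (-0.70 ± 0.13) and miR-1020-3p, each lost their call without some other pairs, among them WT 30 h with mutant 33 h.

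The second comparison asked whether both strands of a hairpin differed together. Both were tested for 87 hairpins. In the 16 hairpins whose guide was higher, 0 passenger strands passed the threshold in edgeR. Of these 16 passengers, 7 were higher and 1 lower at an unadjusted p under 0.05, DESeq2 called 2 higher and limma 1 lower. Without the mutant 34 h pair there were 17 such hairpins, again with 0 passengers called. With library totals there were 13, with 1 passenger lower, and with no filter 17, with 1 passenger higher. Over all 87 hairpins, 6 passengers were called higher and 2 lower, and the guides of those 6 were not called. A strand that misses the threshold is not thereby shown to differ from its partner, so the log2 ratio of the strands within each library was tested directly (limma, Benjamini-Hochberg adjusted over the 87 hairpins). It differed between the strains in 17 hairpins (19.5%). The guide gained on its passenger in 14 of these, 9 of them with a guide that was itself higher, and lost in 3. In 1 of these 3, miR-42, the strands were about equal in WT (mean log2 ratio of 5p to 3p 0.02). Its 5p strand counts as the guide here, whereas the study took the 3p strand, which was higher in the mutant. The 14 include miR-790, whose 3p strand counts as the guide here. The study modelled its 5p strand as the guide, and that strand was called lower. The count of hairpins called was 13 without the mutant 34 h pair and 11 without the pair at aligned 30, 33, 34 or 35 h.

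**Figure D4:**
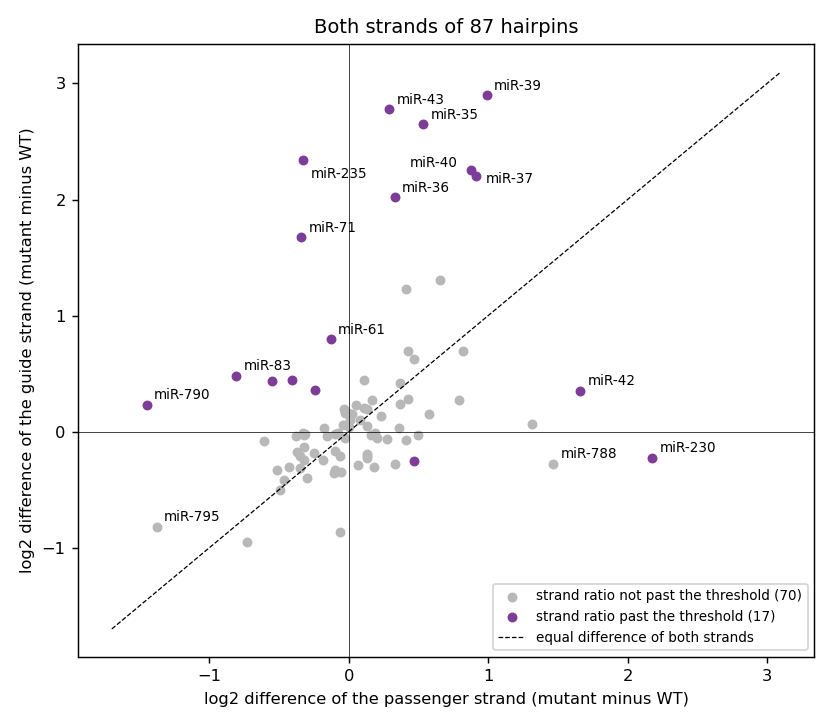
Log2 difference of the guide (y axis) against that of its passenger (x axis), *ebax-1(tm2321)* minus WT, for the 87 hairpins with both strands tested. Of the 17 hairpins whose strand ratio differed (purple), 14 lie above the dashed line of equal difference and 3, including miR-230 and miR-42, lie below it.

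The 9 hairpins were miR-35, miR-36, miR-37, miR-39, miR-40, miR-43, miR-61, miR-71 and miR-235. In miR-235 the guide gained 2.46 ± 0.21 log2 on its passenger (limma adjusted p = 9.51e-06). miR-235-5p was close to the detection limit, at 0.19 to 9.02 CPM in WT and 0.793 to 5.66 CPM in the mutant, and did not pass the test (-0.33 ± 0.39). In miR-43 the gain was 2.42 ± 0.15, as miR-43-5p had 7.38 to 63.2 CPM in WT and 11.9 to 60.7 CPM in the mutant (0.29 ± 0.16). In miR-35 it was 2.23 ± 0.20, in miR-71 2.02 ± 0.19 and in miR-36 1.71 ± 0.16. miR-71-3p gave -0.34 ± 0.13, with 457 to 990 CPM in WT and 354 to 737 CPM in the mutant. Passenger levels of all 9 hairpins overlapped between the strains. The call of miR-37 (1.33 ± 0.23) was lost without the mutant 34 h pair and without WT 30 h and mutant 33 h. Guides also gained in miR-64, miR-65, miR-83, miR-790 and miR-4813, by 0.60 to 1.20 log2, where no guide passed the threshold on its own. In miR-790 the 3p strand gave 0.23, while the 5p strand was called lower (-1.45) from 2 to 15 reads per mutant library. Each of the 5 strand ratio calls was lost on leaving out at least 1 pair of libraries, and that of miR-64 in all 6 cases.

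In 5 hairpins the more abundant strand was not the same in the strains (miR-42, miR-77, miR-230, miR-788 and miR-797). In miR-230 the 5p strand prevailed in every WT library and the 3p strand in every mutant library. miR-230-5p had 760.2, 457, 410.3, 486, 382 and 352 CPM in WT and 434, 338, 401, 423, 327 and 448 CPM in the mutant (-0.23 ± 0.14). miR-230-3p had 461, 410.0, 365, 251, 199 and 225 CPM in WT and 1633, 1353, 1434, 1381, 1165 and 1308 CPM in the mutant. The log2 ratio of 5p to 3p was 0.16 to 0.94 in WT and its mean moved from 0.59 to -1.80, a shift of -2.39 ± 0.15 (limma adjusted p = 7.88e-07). The mean log2 ratio of 5p to 3p in miR-42 moved from 0.02 to -1.24 (-1.27 ± 0.30) and in miR-77 from -0.55 to 0.17 (0.73 ± 0.17). The call of miR-42 was lost in 8 of 12 alternatives, among them leaving out the mutant 34 h pair or the pair at aligned 30, 34 or 35 h. That of miR-77 was lost in 7 of 12, among them leaving out each of the 5 pairs other than that of mutant 34 h.

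In miR-788 the 3p strand prevailed in every WT library, with a log2 ratio of 5p to 3p from -2.94 to -0.39. miR-788-5p went in WT from 380 CPM at 30 h to 53.8 and 51.9 CPM at 34 and 35 h, and stayed at 406 to 557 CPM in the mutant. All mutant libraries exceeded all WT libraries, and the mutant was higher in 6 of 6 hours. Its mean difference of 1.47 ± 0.42 did not pass the threshold (edgeR adjusted p = 0.0245), and the hourly differences ranged from 0.27 to 3.41. miR-788-3p overlapped between strains, with 348 to 748 CPM in WT and 282 to 593 CPM in the mutant. The ratio of the strands narrowly missed the threshold as well (1.78 ± 0.43, limma adjusted p = 0.0101).

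The third comparison asked which strain differences changed across the 6 h, with a linear term per hour. It called 4 of 240 strands (1.67%), and in all of them the mutant gained on WT from hour to hour. 3 were 5p strands of the miR-35 to miR-44 hairpins. miR-44-5p had 362, 209.6, 119, 44.1, 24.6 and 21.0 CPM in WT and 248, 248, 169, 118, 78.2 and 77.0 CPM in the mutant. The last value was the lowest in both strains, and the difference went from -0.54 at 30 h to 1.85 at 35 h (0.50 ± 0.06 log2 per hour, edgeR adjusted p = 0.00205). miR-39-5p (0.47 ± 0.07 per hour) went from -0.10 to 1.99 and miR-41-5p (0.52 ± 0.09) from -0.47 to 1.57. The 4th was miR-788-5p (0.64 ± 0.11 per hour), and for each of these 3 the edgeR adjusted p was 0.00589. miR-235-3p narrowed by 0.57 ± 0.11 per hour (adjusted p = 0.0103) and miR-38-3p widened by 0.39 ± 0.08 (adjusted p = 0.0142), neither past the threshold. At an unadjusted p under 0.05 there were 42 strands, 26 of them with a widening or rising difference.

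Slopes of these 4 strands were similar whichever pair was left out (0.42 to 0.55 per hour for miR-44-5p, 0.43 to 0.52 for miR-39-5p, 0.43 to 0.58 for miR-41-5p and 0.54 to 0.72 for miR-788-5p), but the calls were lost in several of these smaller fits. Without the mutant 34 h pair 0 strands were called (52 at an unadjusted p under 0.05), with 0.51 per hour for miR-44-5p (adjusted p = 0.0133), 0.48 for miR-39-5p (0.0266), 0.43 for miR-41-5p (0.0136) and 0.69 for miR-788-5p (0.0457). The count was also 0 without WT 30 h and mutant 33 h (43 unadjusted), WT 32 h and mutant 35 h (54) or WT 34 h and mutant 37 h (27), and limma called 1. Pairing with another delay changed the slopes (edgeR adjusted p in brackets). With a shift of 2 h they were 0.39 for miR-44-5p (0.0115), 0.31 for miR-39-5p (0.0325), 0.34 for miR-41-5p (0.0338) and 0.64 for miR-788-5p (0.00143). With 4 h they were 0.49 (0.00187), 0.57 (0.0150), 0.71 (0.000351) and 0.51 (0.0503) in that order.

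**Figure D5:**
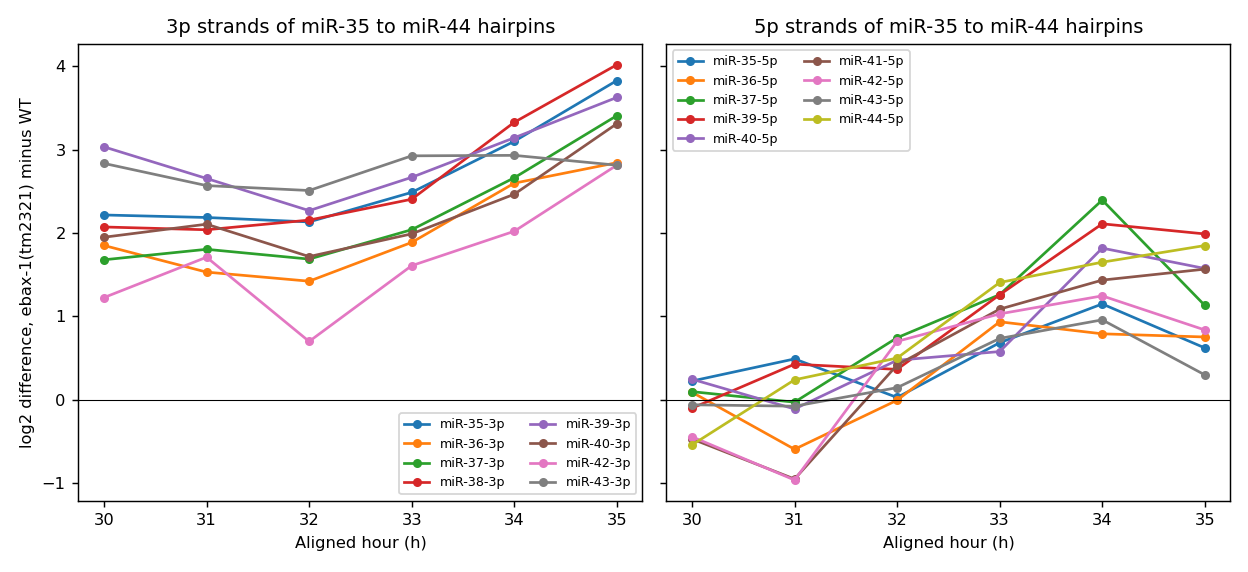
Log2 difference, *ebax-1(tm2321)* minus WT, by aligned hour for strands that passed the filter. Shown are 3p strands of the miR-35 to miR-43 hairpins (left) and 5p strands of the miR-35 to miR-44 hairpins (right). miR-44-3p also passed but is not drawn. The 3p strands of miR-35 to miR-43 were above 0 in every hour, whereas 5p strands such as miR-44-5p began near or below 0 and reached up to 2.40 log2.

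The 5p strands of the miR-35 family as a whole were not called in the mean comparison (0 of 7, median 0.53). Over all 240 strands 18.8% were called. Of the 7 family strands, 4 were higher at an unadjusted p under 0.05, DESeq2 called 2 and limma 0. They summed to 75.9 to 307 CPM in WT and 166 to 309 CPM in the mutant, and the strains overlapped for each. Of these 7, only miR-39-5p and miR-41-5p passed the test for a change across the hours. In the first 2 hours the differences of the 7 strands lay between -0.96 and 0.49 log2, and in the last 2 hours between 0.62 and 2.40. The 3p differences of the family were already 0.70 or more in each hour.

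The last comparison asked where this window differed from the rest of the time course, by setting its strain difference against the mean of those in the 5 aligned hours before and the 4 after. With all 30 paired libraries in 1 fit, 1 of 241 strands was called (0.415%), and 30 were under an unadjusted p of 0.05. This was miR-42-3p, whose difference was 2.48 in the earlier hours, 1.58 in the window and 3.85 in the later hours, a contrast of -1.58 ± 0.26 (edgeR adjusted p = 0.00278). The call was lost without WT 30 h and mutant 33 h (-1.47, adjusted p = 0.0348) or WT 34 h and mutant 37 h (-1.57, adjusted p = 0.0143) and with limma (-1.45, adjusted p = 0.0126, which called 0 strands with 37 under an unadjusted p of 0.05). It was kept without the mutant 34 h pair (-1.63).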

How the data were processed

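Total RNA of whole worms had been made into libraries with the CleanTag kit and sequenced as single-end reads without molecular identifiers. The authors trimmed adapters and aligned with QuasR and Bowtie to the ce10 build, keeping reads with up to 100 hits, and counted reads starting within 3 bp of the 5′ end of each miRBase strand (same orientation). Tool versions were not given in sources used here. The counts deposited by the authors are raw whole numbers of reads per strand. The deposited log2 table holds, per the authors, counts divided by the library total, times the mean total, plus 8, on a log2 scale, and recomputing its 15732 values left differences of at most 0.0005.

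Strain and hour came from the labels. Counts were filtered with filterByExpr by strain (minimum count 10), scaled by TMM, and tested with edgeR 4.0.16 in R 4.3.3 (quasi-likelihood F-test, aligned hour and strain, Benjamini-Hochberg threshold 0.01). The same fit with strain times hour gave slopes, and a fit of 30 libraries the contrast between windows. Strand ratios, log2 of (5p + 8) over (3p + 8), were compared with limma 3.58.1 (moderated, with trend). DESeq2 1.42.0 and limma on the deposited log2 values were alternatives, as were other scalings, filters, shifts, the fit without hour and leaving out each pair. Deviations from the strain mean correlated by 0.225 to 0.603 in all 6 pairs. The pairing itself rests on a 3 h delay that the study found by staging animals of this time course by vulva shape and, earlier, from mRNA of another. Scripts were tested on simulated data.

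Named strands were the 12 largest increases and decreases past the threshold with 1 sign in 6 hours. The 6 smallest p-values for slope and for strand ratio, the partner strands and the lists were also named. These lists held families, clusters, seed groups, mirtrons, tissue markers, and strands of miRNAs that the study named as responsive or unresponsive. Other strands in the report were named after their values were seen. The members and lists were chosen with earlier results of these data known. Chromosomes and neighbours of 149 of 153 hairpins came from the WBcel235 annotation, whose coordinates are not printed since the files use ce10. Mature sequences were not analysed here. Depth limits counting error only, and errors do not cover amplification.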

Additional observations from a re-analysis of the deposited data

Results flagged for a closer look

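For a single distant value, 28 groups of 6 values were examined. They were the hourly differences of the 12 largest increases and 12 largest decreases, and the library totals and TMM factors of each strain. Of these groups 1 stood out, where chance gives about 1 in 20 groups. The strain difference of miR-785-3p was -1.39 log2 at aligned 31 h, the hour of the mutant 34 h library, and the gap to the nearest of the other 5 hours took up 0.746 of the whole range. The part of that library in this value was not tested beyond leaving it out, which kept the call of miR-785-3p.

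The strain difference of miR-42-3p in the window was smaller than in the hours around it, with a contrast of -1.58 log2, and this test of the difference passed the threshold in edgeR but not in limma.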

How the results depend on the processing

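Of the 31 higher and 14 lower strands, counts of the higher ones stayed within 1.5 times under the settings tried apart from limma on the deposited log2 values (20), and went from 22 to 34 when single pairs were left out. Lower strands numbered 71 with library totals, 67 with limma, 34 with all 30 libraries, 31 at a threshold of 0.05, and 7 to 12 when single pairs were left out. Without the replicate block, that is without the pairing by hour, 23 strands were higher and 12 lower, and 35 of the 45 calls were kept. Slopes were called for 1 strand with library totals, 2 with DESeq2 size factors, 1 with limma and 0 to 6 without single pairs. Strand ratios were called in 9 hairpins at a minimum count of 50, where 66 hairpins were tested, and in 11 to 14 without single pairs. The contrast between windows called 0 strands with limma and 0 to 1 without single pairs. DESeq2 called 34 higher and 16 lower strands, 43 of the 45 among them.

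Changes of sign concerned strands that were not called. With library totals these were let-7-5p (-0.052), miR-1-3p (-0.24), miR-228-5p (-0.0152) and miR-43-5p (-0.000732), and with limma let-7-5p (-0.0552), miR-1-3p (-0.24) and miR-228-5p (-0.0153). A shift of 2 h reversed miR-1-3p (-0.00457), a shift of 4 h lin-4-3p (-0.15), miR-42-5p (-0.0784) and miR-43-5p (-0.15), and no replicate block miR-42-5p (-0.0283). miR-1-3p also turned at a minimum count of 50 (-0.0441) and with 30 libraries (-0.0207), and it ranged from -0.0162 to 0.111 when single pairs were left out (below 0 without the pair at 33 or 34 h). miR-235-5p ranged from -0.579 to 0.0391 (above 0 without the pair at 34 h). The cause was not tested.

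The 4 scalings changed the sign of the median in 7 of the lists. Strands under about 10 CPM rested on few reads. The alignment of the strains by 3 h was taken over from the study, and a smaller or larger delay within the window would shift every hourly difference of a strand whose level changes with time.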
